A study of Mus musculus with 2 samples.

Results

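The dense stretch of mouse chromosome 3 is the 30 Mb from 80 to 110 Mb of the mm9 genome, and its members are the DNaseI sites of 1 lymphoma that start within these limits. It held 1637 of the 53593 sites in the list (3.05%) and 40.9% of the 4005 sites on chromosome 3. The tumour, T6, came from an Eμ-myc mouse of the C57/Bl6 strain with the genotype Arf-/- Trp53+/+, and was untreated. In this model Myc is driven in B cells by an immunoglobulin heavy chain enhancer. The labels name the cells as B cells from lymph nodes. They were pressed through a strainer and not purified, so other lymph node cells may be present. Of the 2 libraries in the series, one is the input of this tumour and was not analysed here. The list was made from 1 library without replicates, so differences below have no replicate check and no p-value is given. Whether the cells carry open B cell genes could not be checked, because no mm9 gene annotation was used here. For the same reason no sequence of a site is shown.

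DNaseI cuts DNA where nucleosomes are missing or loosened, as at active promoters, enhancers and insulators. Such sites gather along gene-rich chromosome parts and around genes that define a cell type, and are sparse in gene-poor parts and in genes that the cell keeps closed. A call list shows where cuts exceeded a threshold. It does not show how strong each site was.

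This part of chromosome 3 is known to carry gene families that differ in where they are active. The liver-expressed fibrinogen genes Fgg, Fga and Fgb form one family. The Fc receptor-like genes Fcrl1 and Fcrl5 encode B cell surface receptors. The S100 genes encode small calcium-binding proteins, and the epidermal differentiation genes, such as Lor, Ivl and Flg, build the cornified layer of skin. The Hsd3b genes encode enzymes of steroid synthesis. Mcl1 encodes a survival protein of the Bcl2 family that lymphocytes need. Notch2 encodes a receptor required for marginal zone B cells, and Nras a small GTPase often mutated in tumours. Cd53 encodes a tetraspanin of leukocytes, and Vav3 an exchange factor that acts below the B cell receptor. A RefSeq gene table of another build, GRCm38.p6, placed all 81 genes of 7 lists on chromosome 3. They lie within a run of 468 consecutive protein-coding genes, of 983 on the chromosome. The run goes from Fgg through Cd1d1, Mef2d, the S100 and epidermal genes, the Hsd3b genes and the Gstm genes to Vav3. Only this order was taken from the table. None of its positions was set against the sites, so no site, cluster or gap below is assigned to a gene.

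The stretch was chosen for its density in this same list, so the values that follow on its density describe it and test nothing. It held 54.6 sites per Mb (95% Poisson interval 52.0 to 57.3), and the rest of chromosome 3 held 18.8 per Mb (18.02 to 19.5). The ratio was 2.91. Intervals, here and below, are exact ones at 95%. They cover only counting error and treat sites as independent, which neighbours are not, so they are too narrow. Among the other parts of the chromosome, the density ran from 12.8 per Mb at 20 to 50 Mb to 23.8 per Mb at 110 to 140 Mb. The stretch stood above all 5 of them. Sites covered 4.66% of its bases, and 1.41% of those in the rest of chromosome 3. The read depth of the library is unknown, since the list gives no counts.

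Both limits of the stretch fell in long gaps without a site, so its edges were not cut through dense groups. The first site inside began at 80842990 and was 397 bp wide, and the last site before the limit ended at 79659954 and was 279 bp wide. The gap over the lower limit was 1.18 Mb. The last site inside ended at 108859677 and was 799 bp wide, and the next site, beyond 110 Mb, began at 110052306 and was 2178 bp wide. The gap over the upper limit was 1.19 Mb. The sites of the stretch thus lay between 2 gaps of over 1 Mb.

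In 250-kb steps the stretch was uneven. Of its 120 windows, 28 held no site (23.3%), 36 held 1 to 9, 45 held 10 to 39 and 11 held 40 or more. The median window held 9 sites, with quartiles of 1 and 24. In the rest of chromosome 3, 266 of 505 windows held no site (52.7%), and the median was 0. The 11 fullest windows of the stretch held 499 sites, and the rest of chromosome 3 had 5 windows with 40 or more sites. The fullest window of the stretch held 57 sites, and the fullest in the rest of the chromosome 56. Of the stretch's sites, 50% lay in 22 windows. The densest 12 windows held 32.7%.

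**Figure D1:**
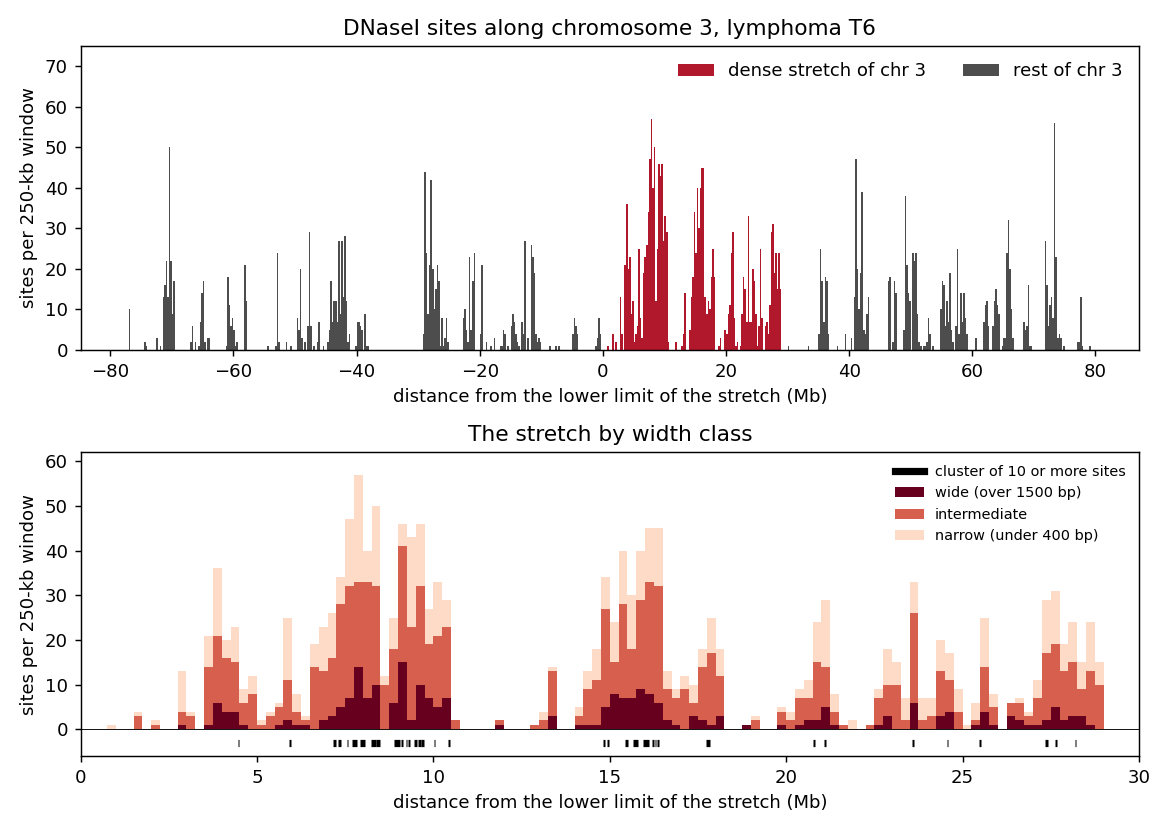
Top: number of DNaseI sites in each 250-kb window of chromosome 3, against distance in Mb from the lower limit of the stretch, with the stretch in red and the rest in grey. Bottom: the stretch alone, each bar split into wide, intermediate and narrow sites, with black marks at the 36 clusters; 2 broad peaks hold most of the sites, and empty windows lie between them and at both ends.

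The 5 fullest windows all lay between 87.5 and 89.75 Mb. The window at 87.75 to 88 Mb held 57 sites, the one at 88.25 to 88.5 Mb held 50 and the one at 87.5 to 87.75 Mb held 47. The windows at 89 to 89.25 Mb and 89.5 to 89.75 Mb held 46 each. The widths of the sites varied between these windows. At 87.75 to 88 Mb, 24 of 57 sites were narrow, that is under 400 bp (42.1%, exact binomial interval 29.1 to 55.9%), and the median width was 579 bp (343 to 971). At 89 to 89.25 Mb, 5 of 46 were narrow (10.9%, 3.62 to 23.6%) and 15 were wide, that is over 1500 bp (32.6%, 19.5 to 48.0%), with a median of 1172.5 bp (884 to 1488). These 2 windows had the highest and lowest narrow share of the 5 and were set side by side after the values were seen, so that their intervals lie apart is no test. In the windows at 88.25, 87.5 and 89.5 Mb, 36%, 31.9% and 30.4% of sites were narrow, with intervals that overlap that of the window at 87.75 Mb. Sites covered 23.6% of the bases of the window at 89 Mb and 20.9% of the window at 87.75 Mb, although the window at 89 Mb had fewer sites.

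Adjacent windows with 10 or more sites each formed 8 dense blocks of at least 2 windows. These blocks took up 41.7% of the length and held 1344 sites (82.1%). The largest ran from 86.5 to 90.5 Mb and held 557 sites, or 139 per Mb (128 to 151). The next ran from 94.25 to 96.75 Mb and held 302 sites, or 121 per Mb (108 to 135). Together these 2 blocks held 52.5% of the sites in 21.7% of the length. The remaining 23.5 Mb of the stretch held 33.1 sites per Mb (30.8 to 35.5), against 18.8 in the rest of chromosome 3. The blocks were defined from the counts, so these densities only describe where in the stretch the sites lay.

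The other 6 blocks were smaller and less dense. Those at 83.5 to 84.5 Mb, 100.5 to 101.25 Mb and 107 to 109 Mb held 100, 64 and 168 sites, at 100, 85.3 and 84 per Mb. Those at 97 to 98.25 Mb, 102.75 to 103.25 Mb and 104.25 to 104.75 Mb held 83, 33 and 37 sites, at 66.4, 66 and 74 per Mb. Every one of them had a higher density than any of the 5 other parts of chromosome 3 taken as a whole. The minimum number of sites set for each window of a block already puts its density above all of these parts. This difference therefore follows from the way blocks were chosen and is no finding.

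Width shares also varied between blocks, within overlapping intervals. In the 2 largest, 30.3% and 30.1% of sites were narrow (26.5 to 34.3% and 25 to 35.7%) and 18% and 17.9% were wide (14.9 to 21.4% and 13.7 to 22.7%). In the block at 107 to 109 Mb, 38.7% were narrow (31.3 to 46.5%) and 10.1% were wide (6.01 to 15.7%). The block at 100.5 to 101.25 Mb had the highest narrow share, 43.8% (31.4 to 56.7%, 28 of 64 sites). The wide share was higher in the 2 largest blocks than in the block at 107 Mb, but their intervals overlapped. The intervals of the narrow shares given here overlapped too. In steps of 1 Mb, among the 18 with 40 or more sites, the narrow share was lowest at 88 to 89 Mb, 26.8% (19.3 to 35.4%). It was highest at 101 to 102 Mb, 52.5% (36.1 to 68.5%, 40 sites). The wide share ran from 7.55% at 86 to 87 Mb (2.09 to 18.2%) to 23.1% at 95 to 96 Mb (16.3 to 31.2%). These extremes were picked by their values, so they describe the range and test nothing.

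Over the whole stretch the median width was 635 bp (596 to 677, 1637 sites), with quartiles of 337 and 1110 bp. The rest of chromosome 3 had a median of 547.5 bp (524 to 579, 2368 sites), and the other 18 autosomes one of 668 bp (663 to 673, 48736 sites). Narrow sites were 33.5% of the stretch (31.2 to 35.8%), 37.2% of the rest of chromosome 3 (35.2 to 39.1%) and 30.04% of the other autosomes (29.6 to 30.4%). Wide sites were 15.3% of the stretch (13.6 to 17.1%), 11.1% of the rest of chromosome 3 (9.87 to 12.4%) and 11.3% of the other autosomes (11 to 11.6%). The stretch therefore had more sites than the other autosomes at both ends of the width range and fewer between them. Sites of at least 600 and under 1000 bp were 22.9% of the stretch (20.9 to 25%) and 27.8% of the other autosomes (27.4 to 28.2%). Sites over 2500 bp were 2.99% of the stretch (2.22 to 3.94%, 49 sites), 1.69% of the rest of chromosome 3 (1.21 to 2.29%, 40 sites) and 1.56% of the other autosomes (1.45 to 1.67%). The listed widths end at a minimum of 249 bp. Exactly this width was given to 64 sites of the stretch (3.91%, 3.02 to 4.97%), to 4.56% of the rest of chromosome 3 (3.76 to 5.48%) and to 2.26% of the other autosomes (2.13 to 2.39%).

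Windows of like density were compared, because width differed with density on the other autosomes. There the median width was 618 bp in windows with 1 to 9 sites (607 to 626) and 715 bp in those with 40 or more (691 to 742). In the stretch the same classes had 605 bp (462 to 704) and 680 bp (593 to 772). In the rest of chromosome 3 they had 533 bp (489 to 582) and 484 bp (426 to 622). In windows with 20 to 29 sites, 37.2% of the sites of the stretch were narrow (32.7 to 41.9%, 443 sites in 18 windows), 35.6% of those in the rest of chromosome 3 (32.1 to 39.3%) and 27.3% of those on the other autosomes (26.5 to 28.1%). In windows with 40 or more sites, the narrow share was 30.3% in the stretch (26.3 to 34.5%, 499 sites in 11 windows), 40.2% in the rest of chromosome 3 (33.9 to 46.7%, 239 sites in 5 windows) and 26.8% on the other autosomes (24.3 to 29.3%, 28 windows). In each of the 5 density classes the narrow share of the stretch was above that of the other autosomes, with intervals apart only at 20 to 29 sites. The wide share of the stretch was 11.7% in windows with 1 to 9 sites (7.29 to 17.5%) and 19% in windows with 40 or more (15.7 to 22.8%). On the other autosomes the same classes had 9.61% (9.09 to 10.2%) and 17.4% (15.3 to 19.6%). In the rest of chromosome 3 they had 10.2% (7.85 to 12.9%) and 14.2% (10.1 to 19.3%). The wide share was thus higher in the fullest class in all 3 parts, with intervals apart only on the other autosomes. The rise in the stretch was not steady, with 10.6% in windows with 10 to 19 sites. In each of the 5 density classes the interval of its wide share overlapped that of the other autosomes.

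**Figure D2:**
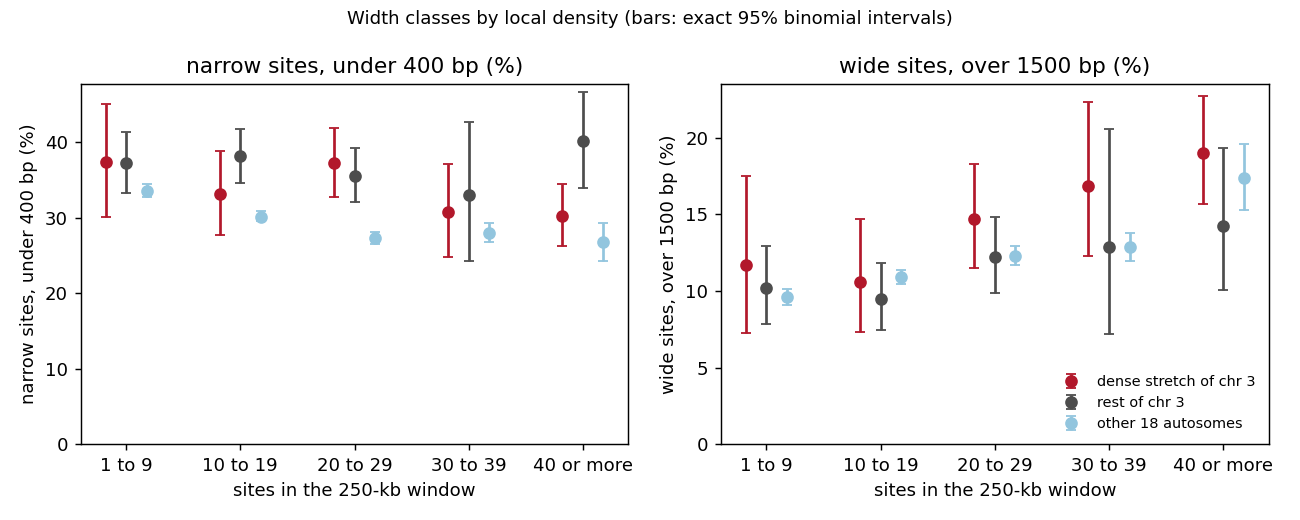
Share of narrow sites (left) and wide sites (right), in percent, in 250-kb windows grouped by their number of sites, for the stretch (red), the rest of chromosome 3 (grey) and the other 18 autosomes (blue); bars are exact 95% binomial intervals. The red points for narrow sites lie above the blue ones in all 5 classes, and the wide shares are higher in the fuller windows.

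Neighbouring sites were joined where the gap between them was 12500 bp or less, and a joined group with at least 10 sites is called a cluster. The stretch held 36 clusters with 684 sites, or 41.8% of its sites (39.4 to 44.2%). The rest of chromosome 3, over 126.2 Mb, held 34 clusters with 508 sites, or 21.5% (19.8 to 23.2%). This was 12 clusters per 10 Mb in the stretch and 2.70 in the rest of chromosome 3. The clusters of the stretch had a median of 15 sites and 67.6 kb, and those of the rest of the chromosome 13 sites and 50.3 kb. Of clusters with 20 or more sites, 11 were in the stretch and 5 in the rest. Sites covered between 12.1 and 36.6% of the length of a cluster in the stretch, with a median of 21.7%, and 21.2% in the median cluster elsewhere on the chromosome. Clusters in the stretch were therefore more frequent and included longer ones, but were covered to a similar extent. Joining at a fixed distance ties clusters to density, for which the stretch was chosen. Their higher frequency and share of sites thus describe the stretch and test nothing.

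**Figure D3:**
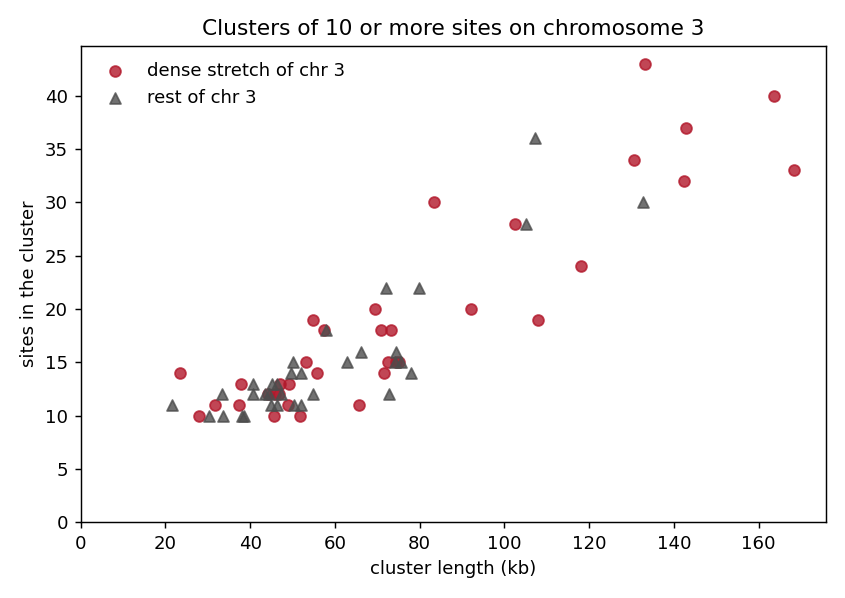
Number of sites against length in kb for each of the 70 clusters on chromosome 3, 36 in the stretch (red circles) and 34 in the rest (grey triangles). The longest cluster (168.4 kb) and the fullest (43 sites) are red, while most of both kinds have fewer than 20 sites.

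The 5 clusters with the most sites differed in how tightly they were packed. The first, with 43 sites in 133.1 kb (87927496 to 88060586), had the smallest median gap of the 5, 1.20 kb, and sites covered 30.4% of its length. At a joining distance of 5 kb, 2 parts of it still formed groups of 10 or more sites, the larger with 23. The second, with 40 sites in 163.6 kb (95951716 to 96115332), fell into 13 groups at 5 kb, the largest with 10 sites, and held a site of 3797 bp. The third, with 37 sites in 142.8 kb (87704975 to 87847791), and the fourth, with 34 sites in 130.5 kb (88228243 to 88358766), had 37.8% and 38.2% narrow sites. The fifth, with 33 sites in 168.4 kb (88887883 to 89056325), was the longest on the chromosome. It was the sparsest of the 5, with a median gap of 3.27 kb. Its sites were wider, with a median of 996 bp and 6 narrow sites (18.2%), and it overlapped the window at 89 Mb described above. A further cluster of 30 sites in 83.5 kb (95428374 to 95511880) had a median gap of 0.777 kb, 26 of its sites stayed together at 5 kb, and it held the second widest site of the stretch. It was chosen for mention after its values were seen.

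At a joining distance of 25 kb, the clusters around 89 Mb ran into one group of 166 sites over 941.6 kb (88862529 to 89804155), which contained 7 of the clusters. The next largest group had 79 sites over 375.5 kb (87516922 to 87892390). Between 87 and 90 Mb, 15 clusters began, 6 in the first Mb, 3 in the second and 6 in the last. Of the 30 steps of 1 Mb in the stretch, 17 held the start of a cluster.

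The 5 widest sites of the stretch lay in 5 different steps of 1 Mb. The widest covered 5251 bp (104440314 to 104445564), the fifteenth widest of the whole list, and belonged to a joined group of 4 sites. The next covered 5248 bp (95476095 to 95481342) in the cluster of 30 sites. A site of 5047 bp (83956741 to 83961787) lay in a group of 5, one of 4817 bp (96302764 to 96307580) in a cluster of 11 and one of 4619 bp (101093119 to 101097737) in a cluster of 15. Very wide sites thus occurred in small groups as well as in clusters. The last of these had another wide site, of 3154 bp, 0.384 kb before it. None of these 5 lay in the largest dense block, but 3 of the 10 widest did, of 4312, 4200 and 3959 bp.

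Single sites and sites in large clusters were compared within the stretch. Sites joined to no other had a median width of 459 bp (395 to 613, 145 sites) and 42.8% of them were narrow (34.6 to 51.2%) and 13.1% were wide (8.08 to 19.7%). Sites in clusters of 20 or more had a median of 680 bp (579 to 783, 341 sites), 30.5% were narrow (25.7 to 35.7%) and 20.2% were wide (16.1 to 24.9%). The intervals overlapped for all 3 measures. In groups of 2 to 4, 5 to 9 and 10 to 19 sites, the wide shares were 10.6%, 17.5% and 14.6%, so there was no steady order with group size. On the other autosomes, single sites had a median width of 676 bp (664 to 688, 8825 sites) and a narrow share of 29.6% (28.7 to 30.6%), and sites in clusters of 20 or more had 739 bp (708 to 776) and 26.4% (24.4 to 28.6%). In the rest of chromosome 3, single sites were 43.6% narrow (38.6 to 48.6%), close to the value in the stretch. Sites in its clusters of 20 or more were 42.0% narrow there (33.7 to 50.7%, 138 sites), above the share in the stretch, with intervals that overlapped. The high share of narrow single sites was thus found over all of chromosome 3.

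Close neighbours showed a related pattern. In the stretch, 33.0% of narrow sites had another site within 500 bp (29.1 to 37.1%, 548 sites), as did 32.1% of intermediate sites of 400 to 1500 bp (28.9 to 35.3%, 839 sites) and 30% of wide sites (24.4 to 36.1%, 250 sites). In the rest of chromosome 3 the shares were 29.3%, 29.1% and 33.1% for narrow, intermediate and wide sites. On the other 18 autosomes, 41.4% of narrow sites (40.6 to 42.2%), 27.8% of intermediate sites (27.2 to 28.3%) and 24.1% of wide sites (22.9 to 25.2%) had such a neighbour. The narrow share exceeded the intermediate one by 0.97 points in the stretch (-4.08 to 6.02, normal approximation) and by 0.46 points on the whole of chromosome 3. On each of the other autosomes the difference was larger, between 7.98 points on chromosome 19 and 18.04 points on chromosome 7. The rule that chose the stretch did not use widths, but gaps are part of density, so this too is a description of 1 list. In the stretch 9.2% of wide sites had another wide site within 500 bp (5.92 to 13.5%), against 7.60% in the rest of chromosome 3 (4.71 to 11.5%) and 3.09% on the other autosomes (2.65 to 3.58%). It was 5.26% at 90 to 120 Mb of chromosome 11 (2.55 to 9.47%) and 7.65% at 120 to 150 Mb of chromosome 5 (lower bound 4.25%), and both intervals overlap that of the stretch. At 120 to 150 Mb of chromosome 4 it was 0 of 167 wide sites (upper bound 2.18%).

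**Figure D4:**
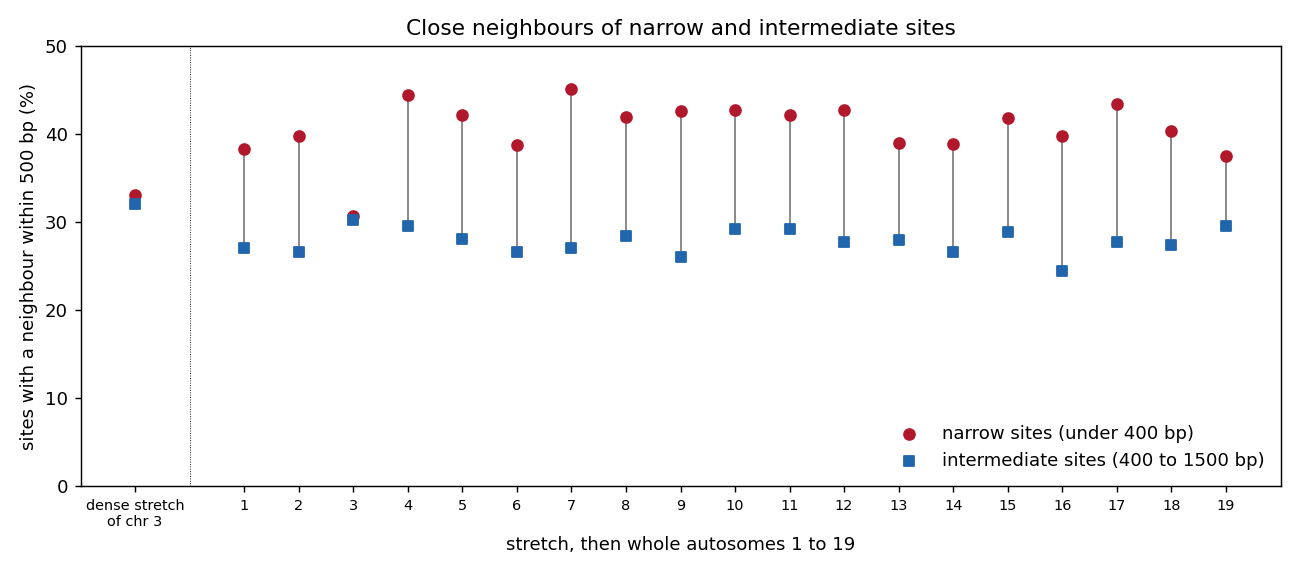
Share of sites, in percent, with another site within 500 bp, for narrow sites (red circles) and intermediate sites (blue squares), in the stretch at the left and on each of autosomes 1 to 19. The 2 points nearly coincide for the stretch and for chromosome 3, and are at least 7.98 points apart on the other 18 autosomes.

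Gaps between neighbouring sites were short in the stretch, with a median of 4.07 kb (3.65 to 4.55), against 6.07 kb in the rest of chromosome 3 (5.27 to 6.84) and 7.17 kb on the other autosomes (7.01 to 7.33). Gaps under 100 bp were not more frequent in the stretch than on the other autosomes. They were 4.58% of those in the stretch (3.62 to 5.71%), 4.10% in the rest of chromosome 3 (3.34 to 4.98%) and 5.54% on the other autosomes (5.34 to 5.75%). Gaps of at least 100 and under 200 bp were 5.26%, 5.45% and 5.38% in these parts. Those of at least 200 and under 500 bp were more frequent in the stretch, 8.25% (6.96 to 9.69%). They were 6.42% in the rest of chromosome 3 (5.47 to 7.49%) and 6.07% on the other autosomes (5.86 to 6.29%). Gaps of 1 to 5 kb were 28.6% in the stretch (26.4 to 30.9%), 24.2% in the rest of chromosome 3 (22.5 to 26%) and 21.1% on the other autosomes (20.7 to 21.4%). Gaps of at least 500 bp and under 1 kb were 7.89% in the stretch (6.63 to 9.30%), 7.27% in the rest of chromosome 3 (6.26 to 8.39%) and 5.03% on the other autosomes (4.84 to 5.23%). For the whole of chromosome 3 this share was 7.52%, above the highest of the other autosomes, 5.80% on chromosome 11.

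Although it was dense as a whole, the stretch held 27 gaps of 100 kb or more between sites that both lay inside it. They made up 10.7 Mb, or 35.5% of its length, against 75.8% in the rest of chromosome 3. Bare ends at the limits were not counted in either part. In the stretch these ends were 843 kb above the lower limit and 1140.3 kb below the upper one. The longest of the 27 gaps covered 1369.8 kb (90514568 to 91884322) and began just beyond the largest dense block, after 2 further sites. After 2 single sites came the next, of 979.2 kb (91955298 to 92934447). Then followed 906.2 kb (99058223 to 99964472), 743.4 kb (80843387 to 81586788) and 700.1 kb (93413382 to 94113467). These 5 held 44.1% of the empty length counted. Of these, 3 lay between 90.5 and 94.25 Mb, so the 2 largest dense blocks were separated by a part with few sites. In the 1-Mb steps that begin at 91, 92 and 93 Mb there were 2, 1 and 18 sites, and in those that begin at 89 and 95 Mb there were 162 and 134. Unknown sequence of the assembly may lie within these gaps and was not removed. Which genes lie in the gaps was not analysed here.

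The sites next to the longest gaps were single or in small groups. The longest gap was bordered by a site of 843 bp in a group of 2 and a single site of 1776 bp. The gap of 979.2 kb lay between single sites of 531 and 459 bp. No gap among the 5 longest was bordered by a group of more than 4 sites.

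On other autosomes, 3 stretches had a like density and were set beside it. Among 73 full windows of 30 Mb on the other autosomes, these were the ones with 1500 or more sites, and the median window held 580. They were 90 to 120 Mb of chromosome 11 with 1677 sites, 120 to 150 Mb of chromosome 5 with 1509 and 120 to 150 Mb of chromosome 4 with 1500. The 3 were cut on a fixed grid counted from the chromosome start, while the stretch of chromosome 3 was chosen for its density. Full windows and clusters are tied to density, so the contrast is a description and no test. At this like density, the stretch of chromosome 3 had more very full windows. It had 11 windows of 250 kb with 40 or more sites, and the 3 others had 2, 2 and 1, on chromosomes 11, 5 and 4. With the windows shifted along the chromosome by part of their length, it had 10 and the others 3, 4 and 3. It had 45 windows with 10 to 39 sites, and the others had 66, 58 and 67. With 41.8% of sites in clusters (39.4 to 44.2%), it stood above chromosome 11 with 29.99% (27.8 to 32.3%), chromosome 5 with 30.2% (27.8 to 32.5%) and chromosome 4 with 23.5% (21.4 to 25.8%). Clusters of 20 or more sites numbered 11 in the stretch and 5, 4 and 4 in the others, while the largest cluster had 43 sites in the stretch and 30, 44 and 35 in the others. Windows without a site were 23.3% in the stretch, 17.5% on chromosome 11, 27.5% on chromosome 5 and 24.2% on chromosome 4. Gaps of 100 kb or more between sites inside took up 35.5% of the stretch, and 37.5%, 45.3% and 41.6% of the others. Bare ends at the limits were not counted in any of the 4, so these shares are not ranked.

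Widths differed from those of the like stretches in both directions. The narrow share was 33.5% in the stretch (31.2 to 35.8%), 27.4% on chromosome 11 (25.2 to 29.6%), 27.9% on chromosome 5 (25.6 to 30.2%) and 28.5% on chromosome 4 (26.2 to 30.8%). It was 37.2% in the rest of chromosome 3, so a high narrow share was not particular to the stretch. The wide share was 15.3% in the stretch (13.6 to 17.1%), 11.3% on chromosome 11 (9.85 to 12.9%), 12.1% on chromosome 5 (10.5 to 13.9%) and 11.1% on chromosome 4 (9.59 to 12.8%). The intervals of the narrow share did not overlap those of the like stretches, and those of the wide share overlapped only that of chromosome 5. Narrow sites had a neighbour within 500 bp in 33.0% of cases in the stretch (29.1 to 37.1%), and in 43.4%, 44.9% and 46.8% on chromosomes 11, 5 and 4, with lowest interval bounds of 38.8, 40.1 and 42.0%. The number of copies of chromosome 3 in this tumour was not examined, and the input library was not analysed here. Copy number and accessibility therefore cannot be told apart in these values.

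**Figure D5:**
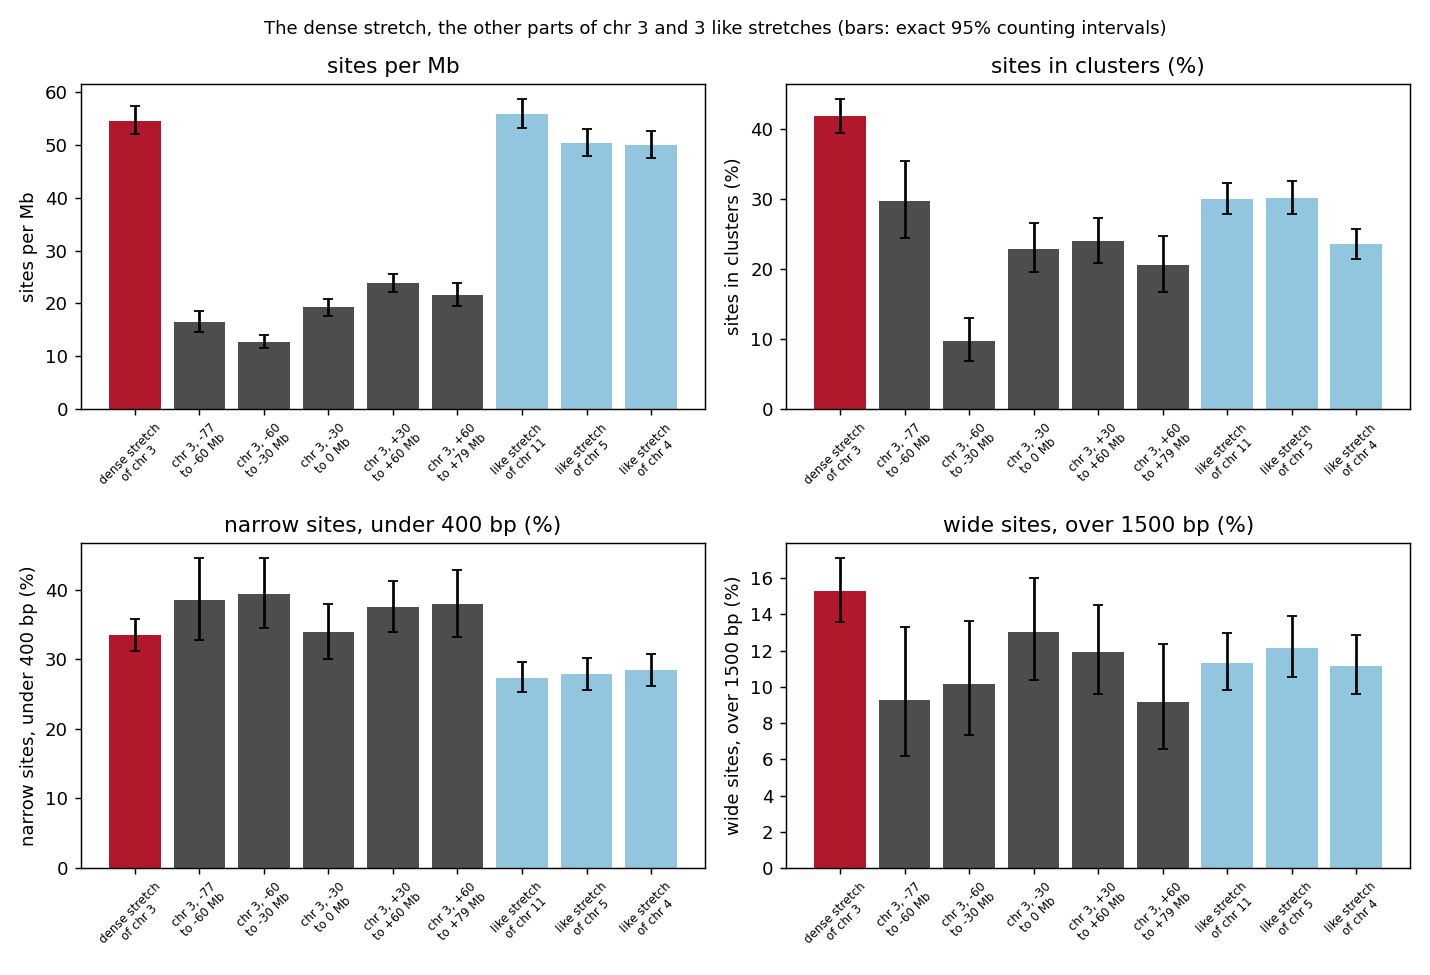
Sites per Mb, share of sites in clusters, share of narrow sites and share of wide sites (shares in percent) for the stretch (red), the 5 other parts of chromosome 3 named by their distance from the lower limit (grey) and the 3 like stretches of 30 Mb (blue); bars are exact 95% Poisson or binomial intervals. The stretch has the density of the blue stretches but a higher share in clusters, 41.8% against at most 30.2%. Its share of wide sites, 15.3%, is the highest shown. The interval of that share overlaps those of the like stretch of chromosome 5 and of chromosome 3 at 20 to 50, 50 to 80 and 110 to 140 Mb.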

How the data were processed

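One deposited list was used, of the accessible sites in the DNaseI library of lymphoma T6. BWA 0.6.2 and SAMtools were used on build mm9, per the submitters' processing notes. How sites were called from the reads, and whether the input entered, is not given in the sources used here. As deposited by the authors, the list has 3 columns, chromosome, start and end, with no other value such as a score or count per site. Starts are counted from 0 in the list and from 1 here. Sites were assigned by their start. Density, widths, gaps and clusters were computed in Python 3.11.15 with numpy 2.4.6, pandas 2.3.3 and scipy 1.17.1, figures with matplotlib 3.10.9, and the functions were tested on simulated sites. Counts have exact Poisson intervals, shares have Clopper-Pearson intervals, and medians have intervals from order statistics. Sites, clusters, windows and gaps named are the 5 with the highest values. The stretch and the lists were chosen with earlier results of these data known. Placement at genes, the marker check and the motif search were planned but not analysed here, for want of mm9 genes and sequence.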

Additional observations from a re-analysis of the deposited data

How the results depend on the processing

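Under the alternatives 34 values were recomputed. For 11 the change was below counting error (below 1.5 times for counts and lengths), and 23 moved. Many moved by construction, since fewer sites or wider groups enter. Among the 23, the covered bases per Mb were set against an interval in sites per Mb. That is another unit, so this label has no meaning. The density of the stretch was 26.3 per Mb with the 790 sites above the median width of the list, 40.4 with sites at most 1 kb apart joined, 63.4 with both limits 5 Mb further in, and 46.6 kb of covered bases per Mb. Its ratio to the rest of chromosome 3 was 3.30, 2.80, 3.15 and 3.30 under these settings, so it stayed above 2.8. Windows without a site were 3.33% with 1-Mb windows, and the median window held 4 of the wider sites. Joining at 1 kb gave a median width of 862 bp and 25.5% narrow sites, while 17.4% were under 300 bp. There were 8 clusters at 5 kb, 96 of at least 5 sites and 9 among the wider sites. The share of sites in clusters was 7.45% at 5 kb, 73.3% at 25 kb, 65.2% with at least 5 sites and 14.7% among the wider sites. In each of these but that with at least 5 sites, which was not run elsewhere, the share was above those of the like stretches, at most 5.63% at 5 kb, 68.4% at 25 kb and 10.2% among wider sites. Empty gaps numbered 13 at 250 kb and more and 45 with the wider sites. Dense blocks held 95.2% of sites with a minimum of 5 sites per window and 60.9% with 20. The neighbour difference was 2.94 points at 250 bp, -0.61 at 1 kb and 0.57 for sites under 300 bp, and the lowest on the other autosomes was 11.5, 5.91 and 7.82 points. The neighbours, blocks, density classes and like stretches, with their settings, were chosen after seeing the data. No paired analysis was possible because there was 1 library. Placement at genes and sequence content were not run. Depth is unknown, so no stricter limit on signal was tried.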
